A study of Mus musculus with 18 samples.

Results

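The BCL2 family genes followed here are 10 genes that decide whether a lymphocyte keeps its mitochondria intact or dies, chosen by name as the main members of the family. They are the pro-survival genes *Bcl2*, *Bcl2l1* and *Mcl1*, the effectors *Bax* and *Bak1*, and the BH3-only genes *Bcl2l11*, *Bid*, *Bad*, *Bbc3* and *Pmaip1*. All 10 were found among the 50600 gene IDs of the count table, and all 10 passed the filter on low counts in both tissues. The table comes from RNA-seq of Foxp3+ regulatory T cells (Tregs) FACS-purified from 18 individual C57BL/6 mice, in a study of what the IL-2 receptor α chain, CD25, encoded by *Il2ra*, does for thymic and peripheral Tregs. Thymic Tregs came at 3 to 4 weeks of age from 5 CD25 flox/Foxp3-YFP/Cre mice (CD25cKO) and from 5 Foxp3/RFP reporter mice with intact CD25. The CD25cKO mice were “cured” of autoimmunity by WT splenocytes given after birth, so donor cells were present in these mice and not in their controls. For the spleen, 4 mice were CD25 flox/Foxp3eGFP-Cre-ERT2/R26Y, the other 4 were CD25 WT reporter controls, and all 8 were induced with tamoxifen when 7 to 10 weeks old, with Tregs collected 10 to 14 days later. In both models Cre is expressed from the *Foxp3* locus and excises exon 4 of *Il2ra*, from early in the Treg lineage in CD25cKO mice and only after tamoxifen in the splenic model. Below, CD25 KO stands for the CD25-deficient mice and WT for the reporter mice.

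Pro-survival BCL2 proteins hold the effectors BAX and BAK in check at the outer mitochondrial membrane. BH3-only proteins carry a short helix, the BH3 domain, that fits into a groove of the pro-survival proteins and frees or activates the effectors, which then open the membrane, release cytochrome c and start the caspases. In T cells, cytokines of the IL-2 family keep this balance toward survival, and BIM, the product of *Bcl2l11*, is the BH3-only protein best known for removing thymocytes and T cells that lose such signals.

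The feature that all members share is the BH3 core, and its coding sequence is shown for the 9 members for which it was read from the genome. For each of the 9, the longest protein of its best-supported transcripts was searched. The pattern was a leucine, any 3 residues, a glycine, alanine or serine, and an aspartate, with exactly 1 match in each. The 30 bases below run 5′ to 3′ along the coding strand of GRCm38 and lie within 1 exon, and the 18 bases of the core are in capitals. The pro-survival genes and the effectors come first and the BH3-only genes last.

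Bcl2 (chr1:106712578-106712607, minus strand): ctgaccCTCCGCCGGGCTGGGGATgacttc

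Bcl2l1 (chr2:152829700-152829729, minus strand): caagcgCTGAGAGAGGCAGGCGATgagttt

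Mcl1 (chr3:95659430-95659459, plus strand): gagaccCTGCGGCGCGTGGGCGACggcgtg

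Bax (chr7:45466000-45466029, minus strand): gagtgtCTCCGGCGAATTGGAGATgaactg

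Bak1 (chr17:27022534-27022563, minus strand): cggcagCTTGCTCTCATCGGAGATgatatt

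Bcl2l11 (chr2:128147144-128147173, plus strand): caggagCTGCGGCGGATCGGAGACgagttc

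Bid (chr6:120897292-120897321, minus strand): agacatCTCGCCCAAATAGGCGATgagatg

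Bad (chr19:6950786-6950815, plus strand): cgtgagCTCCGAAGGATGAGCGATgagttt

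Bbc3 (chr7:16313767-16313796, plus strand): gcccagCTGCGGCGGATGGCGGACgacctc

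In 7 of the 9 members the small residue before the aspartate is a glycine. *Bad* has a serine codon there and *Bbc3* an alanine codon, so the 2 exceptions are both BH3-only genes. The core lies near the middle of the 236-residue BCL2 protein, at residues 94 to 99, and toward the end of the 196-residue BIM protein, at residues 150 to 155.

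Counts of reads on genes ranged from 17239774 to 23993674 in the thymic and from 25258341 to 32639570 in the splenic samples. *Il2ra* was at 524 to 682 CPM (read counts scaled to library size, with TMM factors over all 18 libraries) in thymic WT and 95.9 to 279.9 in thymic CD25 KO Tregs, and the splenic groups had 488 to 539 and 168 to 208 CPM. The gene-level counts include exons that the deletion leaves in place. Thymic CD25 KO mice 2 and 4 had the most *Il2ra*, at 279.9 and 234 CPM. Summed over 7 Treg markers the libraries held 3008 to 4272 CPM, against at most 28.7 CPM for 6 myeloid, 23.9 for 5 B cell, 16.4 for 4 NK cell and 12.6 for 4 thymic epithelial markers in any library. NK cell markers summed to 4.97 to 8.02 CPM in splenic WT and 11.1 to 16.4 in splenic CD25 KO libraries, with *Ncr1* at 0 in all 8. Myeloid markers summed to 16.5 to 23.3 and 21.7 to 28.7 CPM in these groups, and B cell markers to 20.7 to 22.4 and 20.1 to 23.9. In each of these 3 lists 1 marker was called higher in splenic CD25 KO Tregs (*Klrb1c* by 1.90, *Lyz2* by 1.03 and *Pax5* by 1.04 on the log2 scale, with adjusted p of 0.00290, 0.00132 and 0.00352 in edgeR's quasi-likelihood test; named after their values were seen), and the part of such cells in the splenic results was not tested. Immature thymocyte markers reached 172 CPM in the thymus and 11.1 in the spleen, where *Rag1* was at 0, and erythroid markers reached 42.6 CPM in the thymus. The library names of the 2 tissues carry different dates, each shared by WT and CD25 KO libraries, and what the dates stand for is not stated. Between the tissues, tissue, date, age and mouse model cannot be told apart. In a bulk sample, fewer cells that express a gene and less of its RNA per cell cannot be told apart.

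CD25 KO and WT Tregs differed in 7 members of the family in the spleen and in 2 of those 7 in the thymus. Between the thymic groups, loss of CD25, the *Foxp3* reporter allele and the transferred splenocytes change together and cannot be told apart. In the spleen, *Bcl2* fell to 0.498-fold its WT level, *Bcl2l1*, *Bcl2l11* and *Bbc3* fell by smaller amounts, and *Pmaip1*, *Bak1* and *Bid* rose. In the thymus, *Bcl2l1* fell and *Bcl2l11* rose, and *Bcl2* was at 368 and 367 CPM in WT and CD25 KO Tregs. Each tissue was tested with the quasi-likelihood test of edgeR, p-values were adjusted over all its genes by the Benjamini-Hochberg procedure, and genes with FDR < 0.01 are called. In the thymus 2 of the 10 members were called, against 6.16% of all 16986 genes tested; 1 rose and 1 fell, where 3.17% and 2.99% of all genes did. In the spleen 7 of 10 were called, against 9.45% of 17463 genes; 3 rose and 4 fell, where 5.9% and 3.55% did. The genotypes had no overlap for the 2 called members of the thymus, against 16.4% of all genes, and for the 7 called members of the spleen, against 20.4%. Members were chosen with earlier results of these data known. Counts of members here and below are therefore descriptions and no test of the family against all genes.

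**Figure D1:**
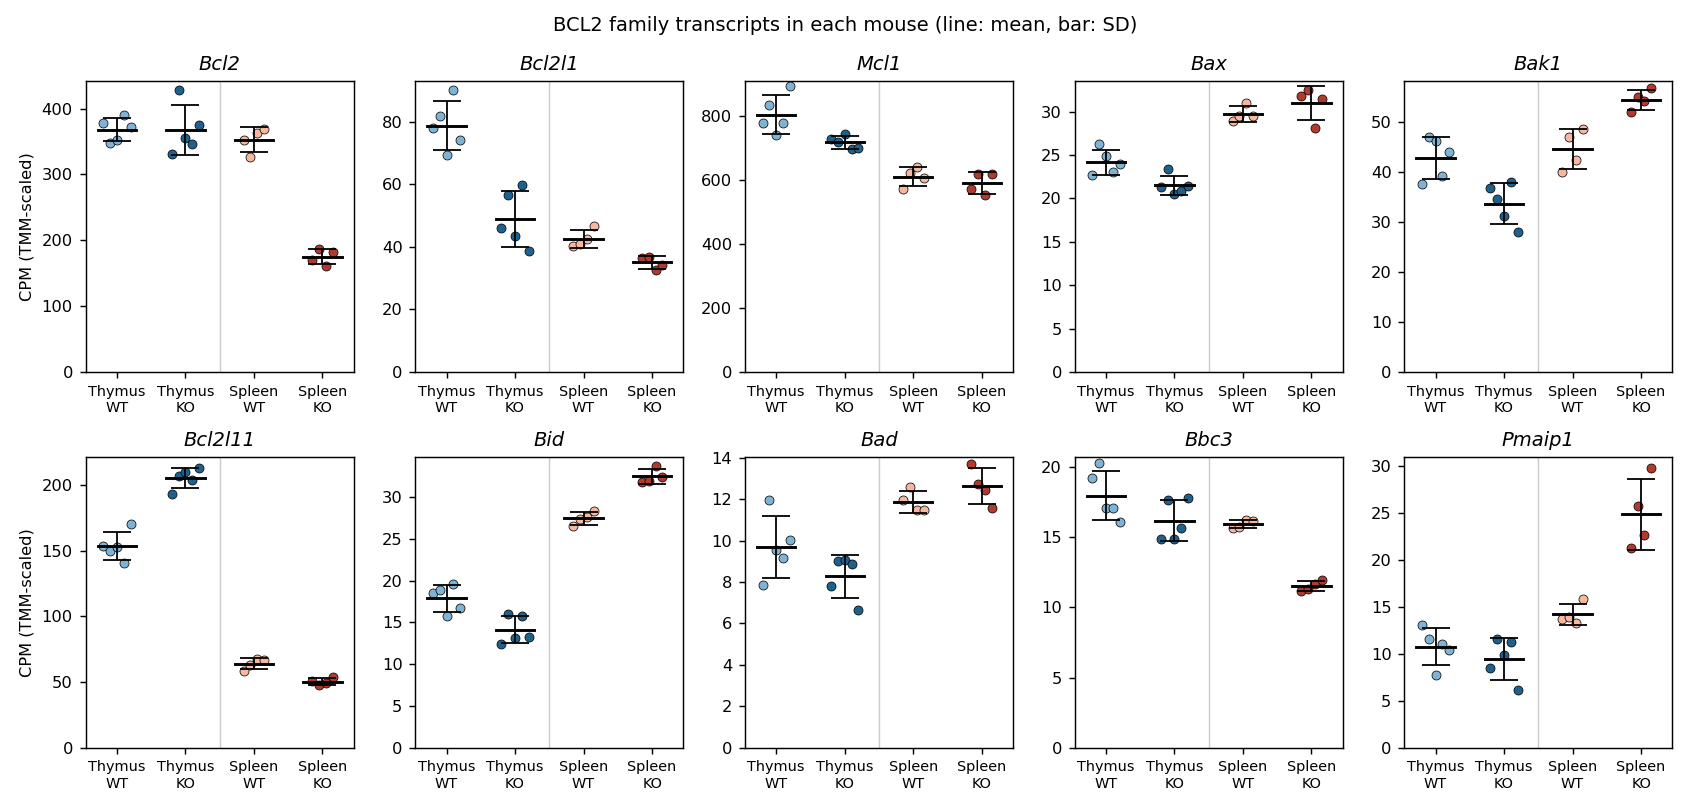
TMM-scaled CPM of the 10 BCL2 family genes in each of 18 mice, 1 panel per gene, with thymic mice on the left and splenic mice on the right of each panel. Points are mice, lines are group means and bars are SD. The 4 splenic CD25 KO mice had 162 to 187 CPM of *Bcl2*, all below every other mouse, and the 5 thymic CD25 KO mice had 193 to 213 CPM of *Bcl2l11*, all above every other mouse.

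*Bcl2* (ENSMUSG00000057329.7, chr1:106538178-106714274, minus strand), the founding pro-survival gene, was at 353, 326, 363 and 369 CPM in the 4 splenic WT mice and at 171, 187, 162 and 182 CPM in the 4 splenic CD25 KO mice. The group means were 353 ± 19.1 and 175 ± 11.4 CPM (SD, n = 4 each), and every CD25 KO mouse was far below every WT mouse. The log2 fold change was -1.01 ± 0.06 (SE), or 0.498-fold, with an adjusted p of 3.95e-08 in edgeR's quasi-likelihood test, and *Bcl2* ranked 7 of 17463 genes by p-value. The 5 thymic WT mice had 378, 347, 353, 390.4 and 372 CPM and the 5 thymic CD25 KO mice 331, 428, 355, 346 and 375 CPM. The thymic groups overlapped fully, and the highest and the lowest thymic mouse were both CD25 KO. The thymic log2 fold change was 0.012 with a 95% interval from -0.15 to 0.17, an interval that leaves out a change of the splenic size. The 2 effects differed by -1.004 on the log2 scale (spleen minus thymus, SE 0.10, adjusted p = 1.38e-06, edgeR's quasi-likelihood test of the interaction over all 18 mice).

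WT Tregs of the spleen and thymus had like levels of *Bcl2*, with a log2 difference of -0.06 (95% interval -0.20 to 0.08, adjusted p = 0.466, edgeR). The splenic CD25 KO group therefore stood apart from the 3 other groups, whose means lay between 353 and 368 CPM. Out of 9697 genes averaging at least 3 in log2 CPM, the 3 whose log2 CPM followed *Bcl2* most closely over the 18 mice were *Sh3bgrl2*, *Lta4h* and *Adpgk*, with Pearson's r of 0.937, 0.925 and 0.920. The 18 points share the 4 groups, and these r are given as a description.

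Markers of effector Tregs moved in the same mice. Of 10 such markers, 9 were higher and 1, *Ccr6*, lower in splenic CD25 KO than WT Tregs, and their summed level was 872 to 1010 against 531 to 616 CPM. Of 9 tested in the thymus, 5 were lower and none higher in CD25 KO Tregs (198 to 302 against 310.4 to 359.9 CPM summed). Of 8 central Treg markers, 3 were lower, among them *Ccr7* and *Ly6c1*, and *Tcf7* was higher in the splenic CD25 KO Tregs, and *Klf2* was lower in the thymic ones. The part of these shifts in the values of *Bcl2* and the other members was not tested.

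*Bcl2l1* (ENSMUSG00000007659.18, chr2:152780668-152831728, minus strand) encodes BCL-xL, a pro-survival protein of developing and activated T cells. In the thymus it was at 78.1, 81.9, 69.5, 90.1 and 74.0 CPM in WT and 46.1, 56.7, 43.5, 59.9 and 38.6 CPM in CD25 KO mice. No CD25 KO mouse reached the lowest WT mouse, and the CD25 KO mice nearest to it, 2 and 4, were those with the most *Il2ra*. The log2 fold change was -0.67 ± 0.12 (SE, 0.629-fold, adjusted p = 0.00397, edgeR's quasi-likelihood test). Without mice 2 and 4 it was -0.87, and the call was lost when WT mouse 2, CD25 KO mouse 1 or CD25 KO mouse 3 was left out, with adjusted p up to 0.0130.

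In the spleen *Bcl2l1* was at 40.2, 40.9, 42.6 and 46.6 CPM in WT and 36.4, 36.8, 32.6 and 34.2 CPM in CD25 KO mice. The groups did not overlap, but the gap between them was narrow, and *Bcl2l1* fell by 0.28 on the log2 scale (SE 0.06, adjusted p = 0.00681, edgeR's quasi-likelihood test). This call was lost when any 1 of 5 of the 8 mice was left out (WT 2, 3 or 4, CD25 KO 3 or 4; adjusted p up to 0.0319) and with a spread shared by all 18 mice (0.122). The difference between the effects in the 2 tissues was 0.40 (95% interval 0.10 to 0.71) and was not called (adjusted p = 0.0646, edgeR's interaction test). It was 0.60 with an adjusted p of 0.000838 without thymic CD25 KO mice 2 and 4. Levels already differed between WT Tregs of the tissues, with 0.541-fold as much *Bcl2l1* in the spleen as in the thymus (adjusted p = 6.24e-07, edgeR).

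*Mcl1* (ENSMUSG00000038612.16, chr3:95658788-95663176, plus strand), whose short-lived product Tregs and other lymphocytes need to live, was at 572 to 641 CPM in splenic WT and 552 to 619.6 CPM in splenic CD25 KO mice. The splenic groups overlapped, with a log2 fold change of -0.05 and a 95% interval from -0.17 to 0.07. Thymic WT mice had 739 to 892 CPM with a median of 779, and thymic CD25 KO mice 698 to 744 CPM with a median of 719. The thymic log2 fold change was -0.15 (95% interval -0.27 to -0.03) and was not called (adjusted p = 0.0741, edgeR's quasi-likelihood test). A fall of the size seen for splenic *Bcl2* lies outside the interval for *Mcl1* in either tissue.

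Of the effectors, *Bak1* (ENSMUSG00000057789.13, chr17:27019810-27029009, minus strand) was at 40.0, 47.0, 42.4 and 48.6 CPM in splenic WT and 51.8, 54.9, 54.1 and 56.7 CPM in splenic CD25 KO mice. All 4 CD25 KO mice were above the WT mice, and the log2 fold change was 0.29 ± 0.07 (SE, 1.22-fold, adjusted p = 0.00542, edgeR's quasi-likelihood test). Thymic values lay the other way, with 37.5, 46.8, 46.2, 39.1 and 44.0 CPM in WT and 36.7, 34.5, 31.1, 38.0 and 27.9 CPM in CD25 KO mice. There the groups overlapped at 1 pair of mice, and the log2 fold change of -0.33 (95% interval -0.53 to -0.13) was not called (adjusted p = 0.0250, edgeR). DESeq2 called it, with an adjusted p of 0.00827. The 2 effects differed by 0.63 (SE 0.12, adjusted p = 0.00180, edgeR's interaction test). The splenic call was lost without WT mouse 1 or 3 or CD25 KO mouse 2, 3 or 4 (adjusted p up to 0.0251), whereas the call of the difference between tissues held with each of the 18 mice left out.

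*Bax* (ENSMUSG00000003873.11, chr7:45461697-45466898, minus strand), the other effector, was at 28.9 to 31.0 CPM in splenic WT and 28.2 to 32.5 CPM in splenic CD25 KO mice. In the thymus it was at 22.7 to 26.3 CPM in WT and 20.5 to 23.4 CPM in CD25 KO mice. The groups overlapped in both tissues. The log2 fold changes were 0.06 (95% interval -0.07 to 0.20) in the spleen and -0.15 (-0.29 to -0.01) in the thymus, with adjusted p of 0.559 and 0.106 (edgeR's quasi-likelihood test).

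Of the BH3-only genes, *Bcl2l11* (ENSMUSG00000027381.16, chr2:128126038-128162547, plus strand) changed in opposite directions in the 2 tissues. In the thymus the WT mice had 154, 149.9, 153, 141 and 171 CPM and the CD25 KO mice 193, 207, 209.7, 204 and 213 CPM. All 5 CD25 KO mice were above all WT mice, and the log2 fold change was 0.44 ± 0.06 (SE, 1.35-fold, adjusted p = 0.000925, edgeR's quasi-likelihood test). In the spleen the WT mice had 58.5, 62.7, 67.4 and 66.8 CPM and the CD25 KO mice 50.6, 47.7, 49.0 and 53.8 CPM. Here the highest CD25 KO mouse lay below the lowest WT mouse, and the log2 fold change was -0.34 ± 0.06 (0.788-fold, adjusted p = 0.000908, edgeR). The effects differed by -0.76 (SE 0.08, adjusted p = 4.58e-06, edgeR's interaction test). Both calls and the call of their difference held under every alternative setting tried, including each mouse left out in turn. WT Tregs of the spleen had 0.416-fold the *Bcl2l11* of thymic WT Tregs, the largest difference between the tissues' WT Tregs among the 10 members.

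*Bbc3* (ENSMUSG00000002083.13, chr7:16308393-16318205, plus strand) encodes PUMA, best known as a target of p53. Splenic WT mice had 15.6, 15.7, 16.2 and 16.2 CPM and splenic CD25 KO mice 11.2, 11.3, 11.7 and 12.0 CPM. The mice of each group lay close together and the groups were well apart, with a log2 fold change of -0.46 ± 0.08 (SE, 0.725-fold, adjusted p = 0.000566, edgeR's quasi-likelihood test) that was called under every alternative setting. In the thymus, where WT mice had 16.1 to 20.3 CPM and CD25 KO mice 14.9 to 17.8 CPM, the groups overlapped (log2 fold change -0.13, 95% interval -0.33 to 0.06, adjusted p = 0.295). The difference between the effects was -0.31 (95% interval -0.55 to -0.08) and was not called (adjusted p = 0.0629, edgeR's interaction test), so the fall of *Bbc3* was not shown to differ between tissues.

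Member promoters were searched for motifs of FOXO and STAT factors. RefSeq promoters of 300 bases on GRCm38.p6 were given for 9 of the 10 members, 15 promoters in all. The letters GTAAACA, a motif of FOXO factors, were searched on both strands and found in 1 promoter each of *Bcl2l11* and *Bbc3* and in none of the other 7 members searched. Among all 32851 promoters 3.65% hold them, and 4.05% of 27025 genes have at least 1 promoter that does. *Bcl2* and *Bcl2l1*, which also fell in the spleen, hold no match, and *Pmaip1* was not searched. The windows below show the motif in capitals, read on the plus strand of the genome; *Bbc3* holds its reverse complement.

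Bcl2l11 (chr2:128125788-128125844, plus strand): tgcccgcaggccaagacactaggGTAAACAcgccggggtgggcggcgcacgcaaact

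Bbc3 (chr7:16310067-16310127, plus strand): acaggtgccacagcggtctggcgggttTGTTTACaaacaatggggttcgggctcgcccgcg

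Counted from the start to which the promoter belongs, the motif begins at position -227 in *Bcl2l11* and -167 in *Bbc3*. *Bbc3* has 3 RefSeq promoters. The one with the motif, chr7:16310011-16310310, lies downstream of the gene start given above. A motif of STAT factors, TTCNNNGAA, was in none of the 15 member promoters and in 8.30% of all promoters. These matches describe letters in short windows and are no evidence of binding.

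*Pmaip1* (ENSMUSG00000024521.7, chr18:66458533-66465565, plus strand) encodes NOXA, a BH3-only protein that binds MCL1. It rose in the spleen from 13.8, 14.0, 13.3 and 15.8 CPM in WT to 21.3, 25.8, 22.7 and 29.8 CPM in CD25 KO mice. All CD25 KO mice were above the WT mice, and the log2 fold change of 0.81 ± 0.10 (SE, 1.76-fold, adjusted p = 5.02e-05, edgeR's quasi-likelihood test) was called under every alternative setting. The thymic spread was wide, with 13.1, 11.6, 7.72, 11.02 and 10.4 CPM in WT and 8.50, 11.6, 9.86, 11.3 and 6.15 CPM in CD25 KO mice, from 117 to 273 reads a mouse. The thymic log2 fold change was -0.17 with a 95% interval from -0.55 to 0.22 (adjusted p = 0.525). The effects differed by 0.99 (SE 0.22, adjusted p = 0.00500, edgeR's interaction test), a call that was lost when any 1 of 8 of the 18 mice was left out (thymic WT 2, CD25 KO 1 or 3; splenic WT 1, 2 or 3, CD25 KO 2 or 4), with adjusted p up to 0.0162.

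*Bid* (ENSMUSG00000004446.12, chr6:120891930-120916853, minus strand) encodes the BH3-only protein that caspase-8 cleaves, which links death receptors to mitochondria. It was at 26.5, 27.4, 27.6 and 28.3 CPM in splenic WT and 31.8, 31.9, 33.7 and 32.3 CPM in splenic CD25 KO mice. The groups did not overlap, and the log2 fold change was 0.24 ± 0.06 (SE, 1.18-fold, adjusted p = 0.00809, edgeR's quasi-likelihood test). The call was lost when any 1 of the 8 splenic mice was left out, with adjusted p of 0.0115 to 0.0276 and log2 fold changes of 0.22 to 0.26. Thymic WT mice had 15.7 to 19.6 CPM and thymic CD25 KO mice 12.4 to 15.95 CPM, with a log2 fold change of -0.32 (95% interval -0.54 to -0.11, adjusted p = 0.0365, not called). This thymic fall was called under 3 of 21 alternative settings. The difference between the effects, 0.58 (SE 0.11, adjusted p = 0.00185, edgeR's interaction test), was called with each of the 18 mice left out.

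*Bad* (ENSMUSG00000024959.13, chr19:6941861-6951899, plus strand), a BH3-only gene whose product is held inactive by phosphorylation, was called in neither tissue. Splenic WT mice had 11.5 to 12.6 CPM and splenic CD25 KO mice 11.6 to 13.7 CPM, and thymic WT mice 7.85 to 11.9 and thymic CD25 KO mice 6.67 to 9.04 CPM. The groups overlapped in both tissues, with log2 fold changes of 0.09 (95% interval -0.10 to 0.27) and -0.21 (-0.48 to 0.06).

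**Figure D2:**
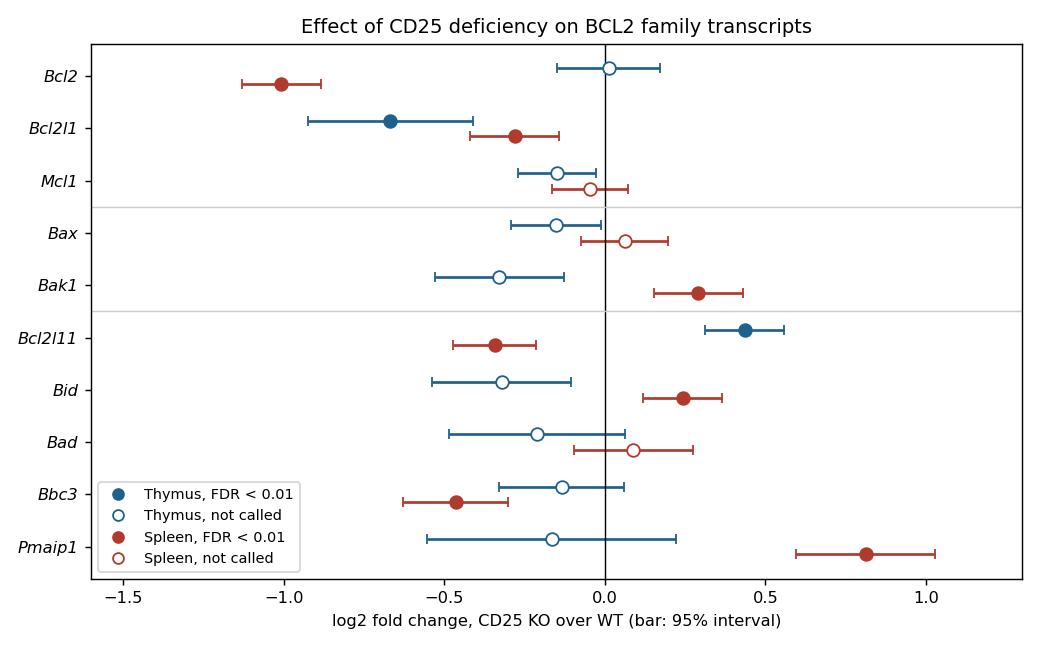
Log2 fold change of CD25 KO over WT for each of the 10 members, thymus in blue and spleen in red, with 95% intervals; filled points have FDR < 0.01 in edgeR's quasi-likelihood test. The thymic and splenic points of *Bcl2l11* lie at 0.44 and -0.34, and those of *Bcl2* at 0.012 and -1.01.

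The test of the difference between the tissues called 5 of the 10 members, against 6.98% of 18686 genes. For *Bcl2* and *Bcl2l11* the splenic effect was below the thymic one, as for 2.49% of all genes, and for *Bak1*, *Bid* and *Pmaip1* it was above, as for 4.5%. *Bcl2l11* alone among these was called in both tissues with opposite signs. The other 5 members were not called, and their intervals were -0.06 to 0.29 for *Mcl1*, 0.04 to 0.42 for *Bax*, -0.01 to 0.64 for *Bad*, and those given above for *Bcl2l1* and *Bbc3*. Between WT Tregs of the spleen and thymus 5 of 10 members were called, where 40.4% of all genes were, and 6 of 10 had no overlap, where 46% of all genes had none. *Bcl2l1*, *Mcl1* and *Bcl2l11* were lower in the spleen, at 0.541-, 0.758- and 0.416-fold (19.5% of all genes were lower), and *Bax* and *Bid* were higher, at 1.23- and 1.54-fold (21% were higher). The sixth without overlap, *Pmaip1*, was not called (adjusted p = 0.0394, edgeR).

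Ratios of read counts within a mouse do not depend on how libraries are scaled, and 4 pairs of a pro-survival gene with a gene that opposes it are given as descriptions. They are a choice among many such pairs, and most of them hold *Bcl2*. Pairs of *Mcl1* with *Bcl2l11* or *Bbc3* were left out. Splenic log2 fold changes were -0.34 for *Bcl2l11*, -0.46 for *Bbc3* and -0.05 for *Mcl1*, so those ratios move the other way in the spleen. The ratio of *Bcl2* to *Bcl2l11* reads was 2.46, 2.31, 2.31, 2.77 and 2.18 in thymic WT and 1.71, 2.07, 1.69, 1.70 and 1.76 in thymic CD25 KO mice. In the spleen it was 6.02, 5.20, 5.38 and 5.53 in WT and 3.37, 3.93, 3.30 and 3.38 in CD25 KO mice. The ratio was thus lower in every CD25 KO mouse of either tissue than in the WT mice of that tissue, at 0.742-fold in the thymus and 0.631-fold in the spleen. In the thymus *Bcl2l11* was the called member of the pair, and in the spleen both fell, *Bcl2* by the larger log2 fold change.

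The other 3 ratios were lower in splenic CD25 KO mice. *Bcl2* to *Bax* was 11.1 to 12.5 in splenic WT and 5.37 to 5.77 in splenic CD25 KO mice, 0.477-fold. *Bcl2* to *Bid* was 11.9 to 13.3 and 4.79 to 5.86, 0.420-fold. For *Mcl1* to *Pmaip1* the values were 38.3 to 48.2 and 20.8 to 26.9, 0.556-fold, with no overlap in any of the 3. In the thymus WT and CD25 KO mice overlapped in all 3 ratios, which were 1.12-, 1.26- and 1.03-fold in CD25 KO over WT.

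**Figure D3:**
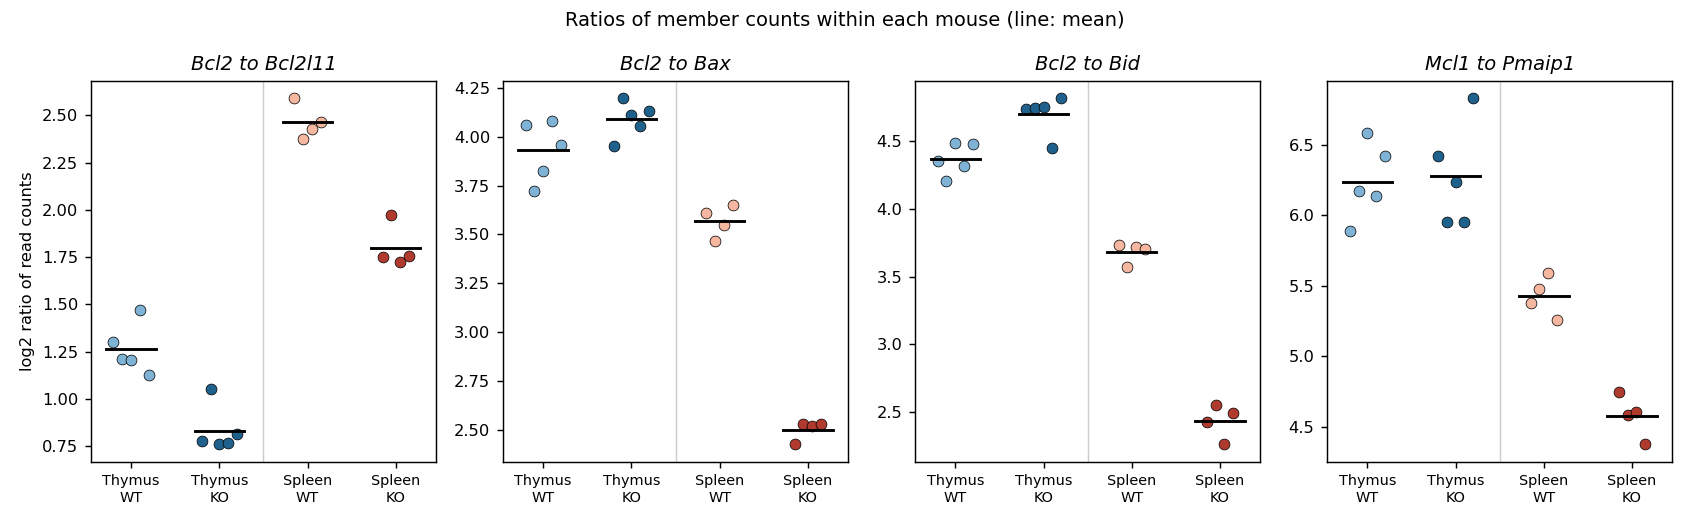
Log2 ratios of raw read counts of pairs of members within each mouse, 1 panel per pair, with lines at the group means. The ratio of *Bcl2* to *Bcl2l11* was lower in CD25 KO than in WT mice in both tissues without overlap, and the other 3 ratios were lower without overlap in the spleen only.

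Levels of different genes were compared per kilobase of exon. *Mcl1* was the most abundant member in every group, at 235 ± 17.5 CPM per kilobase in thymic WT and 178 ± 8.64 in splenic WT Tregs, and it made up 60.2% to 64.2% of the sum over the 10 members in each group. *Bcl2* was second in thymic WT, thymic CD25 KO and splenic WT Tregs, at 40.2, 40.1 and 38.5 CPM per kilobase, and did not overlap with the member below it in any of the 3. In splenic CD25 KO Tregs it was at 19.1 CPM per kilobase, below *Bak1* at 22.6 and *Bax* at 19.7, and it overlapped with *Bax* but not with *Bak1*. *Bad* was the lowest member in all 4 groups, at 3.24 to 4.93 CPM per kilobase, and did not separate from its neighbour, *Pmaip1* in 3 groups and *Bbc3* in splenic CD25 KO Tregs.

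Sums by role covered the members only and left out the *Bcl2a1* copies, pro-survival genes given below that rose in the spleen. By role, the 3 pro-survival genes made up 76.3% ± 0.57 of the splenic WT sum and 72.1% ± 0.59 of the splenic CD25 KO sum (SD, n = 4 per group). The 2 effectors went from 12.6% ± 0.37 to 15.3% ± 0.23 and the 5 BH3-only genes from 11.1% ± 0.26 to 12.6% ± 0.45, and none of the 3 shares overlapped between the groups. The thymic BH3-only share was 11.03% ± 0.40 for WT against 13.2% ± 0.49 for CD25 KO mice (SD, n = 5 per group) without overlap, with *Bcl2l11* at 5.23% and 7.70%. The thymic pro-survival shares, 79.9% and 78.5%, and effector shares, 9.05% and 8.31%, overlapped. Shares of a common total move together. The BH3-only sums themselves overlapped in the spleen (31.8 to 34.2 CPM per kilobase in WT, 33.7 to 36.9 in CD25 KO). They also overlapped in the thymus, at 38.1 to 42.4 and 40.7 to 46.4. The thymic pro-survival sums (269.95 to 317.75 and 253.8 to 269.55) and effector sums (30.0 to 36.1 and 25.2 to 29.2) did not overlap. Nor did the splenic pro-survival and effector sums. These shares and sums are given as descriptions, and they take all exons of a gene as equally used.

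**Figure D4:**
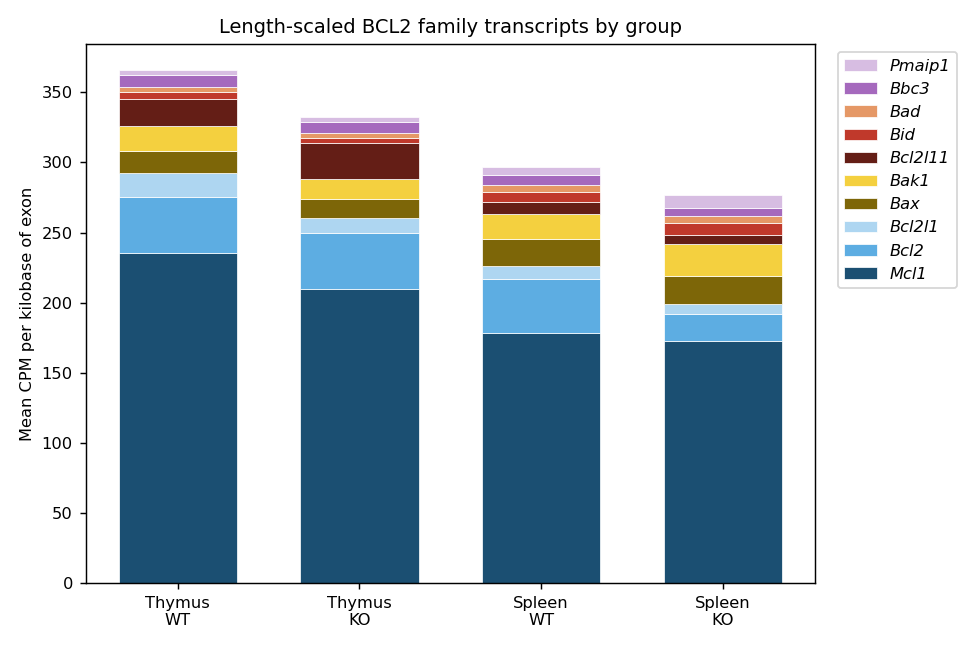
Mean CPM per kilobase of exon of the 10 members, stacked for each of the 4 groups. *Mcl1* forms the largest layer in each group, and the *Bcl2* layer is 19.1 CPM per kilobase in splenic CD25 KO Tregs against 38.5 to 40.2 in the other groups.

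Of 15 further BCL2 family genes 12 passed the filter on low counts, and none was called in the thymus. In the spleen 2 of the 12 rose and none fell, where 5.9% of all genes rose and 3.55% fell, and the median log2 fold change of the 12 was 0.25 against -0.0065 over all genes tested. Both are copies of *Bcl2a1*, which encodes the pro-survival protein A1. *Bcl2a1d* went from 11.3 ± 1.20 to 21.8 ± 2.30 CPM (log2 fold change 0.95, adjusted p = 7.34e-06) and *Bcl2a1b* from 15.6 ± 1.38 to 23.5 ± 1.82 CPM (0.60, adjusted p = 0.000142, edgeR's quasi-likelihood test; SD, n = 4 each). The copies are nearly identical, so how reads were divided between them is uncertain. The effect on *Bcl2a1d* differed between tissues by 0.82 (adjusted p = 0.000299, edgeR's interaction test). For *Bcl2a1b* the difference was 0.42 and was not called (adjusted p = 0.116, same test).

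Of 11 genes that act from the opened mitochondrion to the caspases, 3 rose and none fell in splenic CD25 KO Tregs, against the same background, with a median log2 fold change of 0.05 over the 11. *Apaf1*, the scaffold of the apoptosome, went from 76.2 ± 3.46 to 98.9 ± 7.79 CPM (SD, n = 4 each; log2 fold change 0.38, adjusted p = 0.000418, edgeR's quasi-likelihood test), with no overlap between the genotypes. In the thymus *Xiap*, which encodes a caspase inhibitor, was the 1 gene of the 11 that was called, with a rise of 0.48 on the log2 scale (adjusted p = 0.00872), from 152 ± 20.5 to 210.2 ± 23.0 CPM (SD, n = 5 each).

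Of 14 tested regulators of the family, 2 were called in the spleen and 1 in the thymus, where 9.45% and 6.16% of all genes were, so the counts are near the background. *Foxo1* and *Huwe1* fell in the spleen, by 0.24 and 0.20 on the log2 scale (adjusted p = 0.00451 and 0.00806), and *Trp53* fell by 0.30 in the thymus (adjusted p = 0.00635, edgeR's quasi-likelihood test). *Foxo1* encodes a factor that binds the FOXO motif, *Huwe1* a ubiquitin ligase of MCL1, and *Trp53* the p53 protein. The list's median log2 fold change was 0.07 in the spleen and -0.05 in the thymus.

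Of 8 genes of the death receptor pathway, 1 was called in the spleen and 2 in the thymus, against the same 9.45% and 6.16% of all genes, and nothing is read from such small counts. *Casp8*, the caspase that cleaves BID, fell in the spleen by 0.28 (adjusted p = 0.000457), and *Tnfrsf10b*, a TRAIL receptor, and *Ripk1*, a kinase of the receptor complex, fell in the thymus by 0.51 and 0.48 (adjusted p = 0.00807 and 0.00157, edgeR's quasi-likelihood test). The list's median log2 fold change was 0.0030 in the spleen and -0.16 in the thymus.

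Exons of 5 members overlap those of another gene. *Bcl2* shares 558 bases with the antisense gene *D630008O14Rik*, *Bid* 628 with *Bcl2l13*, *Bad* 524 with *Gpr137* and *Bak1* 437 with *Ggnbp1*, all on the opposite strand. *Bax* shares 192 with *Gm45808* on its own strand, which had 1 read in all 18 samples. The strand setting of the counting is not given in the sources used here, so how reads in the opposite-strand overlaps were assigned is not known.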

How the data were processed

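RNA was measured in sorted Tregs from 18 mice, in 4 groups taken from the sample labels. The authors prepared ribosome-depleted libraries, mapped reads to GRCm38 with STAR 2.5.0b, and deposited raw counts per GENCODE M13 gene from featureCounts 1.5.0. Symbols, positions and exonic lengths came from GENCODE M21, in which 50376 of 50600 IDs matched, and promoters from RefSeq. Members and gene lists were chosen with earlier results of these data known.

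Counts were analysed in R 4.3.3 with edgeR 4.0.16: filterByExpr, TMM and the quasi-likelihood test within each tissue, with Benjamini-Hochberg adjustment and FDR < 0.01. The difference between tissues and the WT comparison came from 1 fit of all 18 samples. SE is the log2 fold change over the root of F, and log2 CPM used a prior count of 2. The text names all 10 members, *Il2ra*, every called gene of the further BCL2 family genes, up to 3 called genes of each other pathway list per tissue, and the 3 genes closest to *Bcl2*. A few genes that the rule covers are left out of the text. The procedure was tested on simulated counts. DESeq2 1.42.0, other scalings and filters, removal of the GC trend, a replicate block and leaving out mice were alternatives. No 2 replicates were as alike as 1 library counted again, with a chi-square per degree of freedom of at least 3.55. Reads carry no molecular identifiers.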

Additional observations from a re-analysis of the deposited data

Results flagged for a closer look

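The log2 fold change of CD25 KO over WT differed between splenic and thymic Tregs for 5 of the 10 members, by edgeR's test of the interaction at FDR < 0.01. The difference, spleen minus thymus on the log2 scale, was -1.004 for *Bcl2*, which was lower in 4 of 4 splenic CD25 KO mice than in any splenic WT mouse, and -0.76 for *Bcl2l11*, the member that was called in opposite directions in the tissues. It was 0.63 for *Bak1* and 0.58 for *Bid*, each higher in 4 of 4 splenic CD25 KO mice and not called in the thymus. Both parts enter these differences: log2 fold changes were 0.29 and 0.24 in the spleen and -0.33 and -0.32 in the thymus. Neither thymic 95% interval reached 0. It was 0.99 for *Pmaip1*, whose thymic values spread most among the members. Tissue, library date, age, mouse model and the time since CD25 was lost all change between the 2 contrasts and cannot be told apart.

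No mouse stood apart from its group in any of the 40 checks of 1 member in 1 group by Dixon's test.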

How the results depend on the processing

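Of 790 values of members recomputed under alternative settings, 731 kept their direction and their side of the threshold, 36 were no longer called, 10 became called and 13 changed sign, none of them a called value. In the thymus 1047 genes were called, against 2733 with DESeq2, 3951 at FDR < 0.05, 2881 with all 18 samples in 1 fit, 2008 without CD25 KO mice 2 and 4, and 371 to 1087 with 1 mouse left out. Members called there were 4 at FDR < 0.05 and with all 18 samples, and 1 to 2 with 1 mouse left out. In the spleen 1651 genes were called, against 3001 at FDR < 0.05, 795 with all 18 samples in 1 fit, and 1099 to 1723 with 1 mouse left out, and members called were 4 with all 18 samples (*Bcl2l1*, *Bak1* and *Bid* were lost) and 4 to 6 with 1 mouse left out. For the difference between tissues 1305 genes were called, against 2193 with DESeq2, 3149 at FDR < 0.05, 2307 without thymic CD25 KO mice 2 and 4, and 817 to 1489 with 1 mouse left out. Thymic mice of both genotypes carry numbers 1 to 5, but same-numbered mice did not deviate together (r from -0.24 to 0.14, 1 of 5 closest to its own number). With the replicate block 209 genes were called, and 212 with the block and the GC trend removed. Signs changed for thymic *Bcl2*, at -0.021 with the GC trend removed, -0.0047 with all 18 samples, -0.027 with block and GC removal, -0.050 without CD25 KO mice 2 and 4, and -0.054 to 0.0514 with 1 mouse left out. They changed for thymic *Bax* (0.0046 with the GC trend removed, 0.0015 with the block as well), for thymic *Bbc3* (0.0265 and 0.019), and for *Bak1* between WT Tregs (-0.050 with the GC trend removed, -0.0039 to 0.11 with 1 mouse left out). *Bax* between WT Tregs was 0.19 and not called with the GC trend removed. Across genes, Spearman's correlation of the log2 fold change with GC content was -0.40 for thymic and -0.17 for splenic samples. The causes of these shifts were not tested. Depth limits the thymic values of *Bad* and *Pmaip1* most, at 117 to 281 reads a mouse.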
